A study of Mus musculus with 8 samples.

Results

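The genes described here are 9 transcription factors and cofactors associated with blood stem cells, Mecom, Prdm16, Meis1, Meis2, Hhex, Hlf, Bcl11a, Zbtb16 and Zfpm1. They were taken by name from 20145 genes with a named probe, and every probe whose RefSeq entry maps to one of them was used, 11 of the 55681 probes on the array. Measurements came from mouse cells of strain C57BL/6 that carry a Runx1 gene switched on by doxycycline (iRUNX1, a Tet-on system). Embryonic stem cells were grown as embryoid bodies for 3.25 days, cells with the receptor Flk-1 were purified from them by magnetic sorting, cultured, purified again, and kept for 2 days as hemogenic endothelium, the endothelium that gives rise to blood. The uninduced group (DOX-, genotype label "control") and the induced group (DOX+, genotype label "Runx1 expression", doxycycline overnight at 0.3 µl/ml, the unit in the labels) had 3 biological replicates each, and each group had 1 further array titled as a technical repeat. All groups carry the inducible gene. Whether the cells' own Runx1 alleles are intact, whether the line is 1 clone, and which promoter and Runx1 isoform the construct holds are not given in the sources used here. A doxycycline control that lacks the construct was not analysed here, and the differences below therefore set cells with doxycycline against cells without it.

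Runx1 is a DNA-binding factor that endothelial cells need to become blood cells. Several of the 9 factors, Mecom, Prdm16, Meis1 and Hlf among them, are known for maintaining blood stem cells, and some are also made by embryonic endothelium. Zfpm1, also called FOG1, instead works as a partner of GATA factors in megakaryocytes and red cells, and Bcl11a and Zbtb16 are zinc finger repressors that act in several blood lineages. The comparison asked how the levels of these factors differ between hemogenic endothelium without and with induced Runx1.

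Arrays were 1-colour, with 25 ng of RNA labelled with Cy3 per sample, and all 8 lay on 1 slide. Processed signal had a 75th percentile of 338 to 699 on the DOX- replicates and 543 to 973 on the DOX+ replicates, and 55.6% to 70.4% of the spots were well above background. Values below are log2 signals relative to that percentile of the same array, so a value of 0 equals it and a difference of 1 is a doubling. Probes differ in brightness for reasons of their sequence, so only the same probe is compared between groups. Runx1 itself read a difference of -1.03 (SE 0.32) on the 1 probe kept, A_55_P2183438, and an adjusted p of 0.126 in limma. The sources used here do not say whether the construct contains the stretch this probe reads, and the value is therefore no check of the labels.

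Of the 9 factors, 8 were measured and 1, Zfpm1, rose beyond the threshold (adjusted p under 0.05 in limma, Benjamini-Hochberg adjustment over 14518 genes), while 6.3% of all genes tested passed and 4.14% rose. Mecom and Meis2 were lower on every DOX+ replicate than on any DOX- replicate, and Bcl11a and Meis1 were higher in the same sense, but none of these 4 passed. Mecom passed as a fall once the replicate number was taken into the fit as a block, where 2 of the 8 factors and 16.2% of all genes passed. The groups did not overlap for 5 of the 8 factors, 3 of them higher and 2 lower, against 28.3% of all genes, of which 19.6% were higher and 8.7% lower. The median difference over the 8 was 0.21 and that over all genes 0.09.

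**Figure D1:**
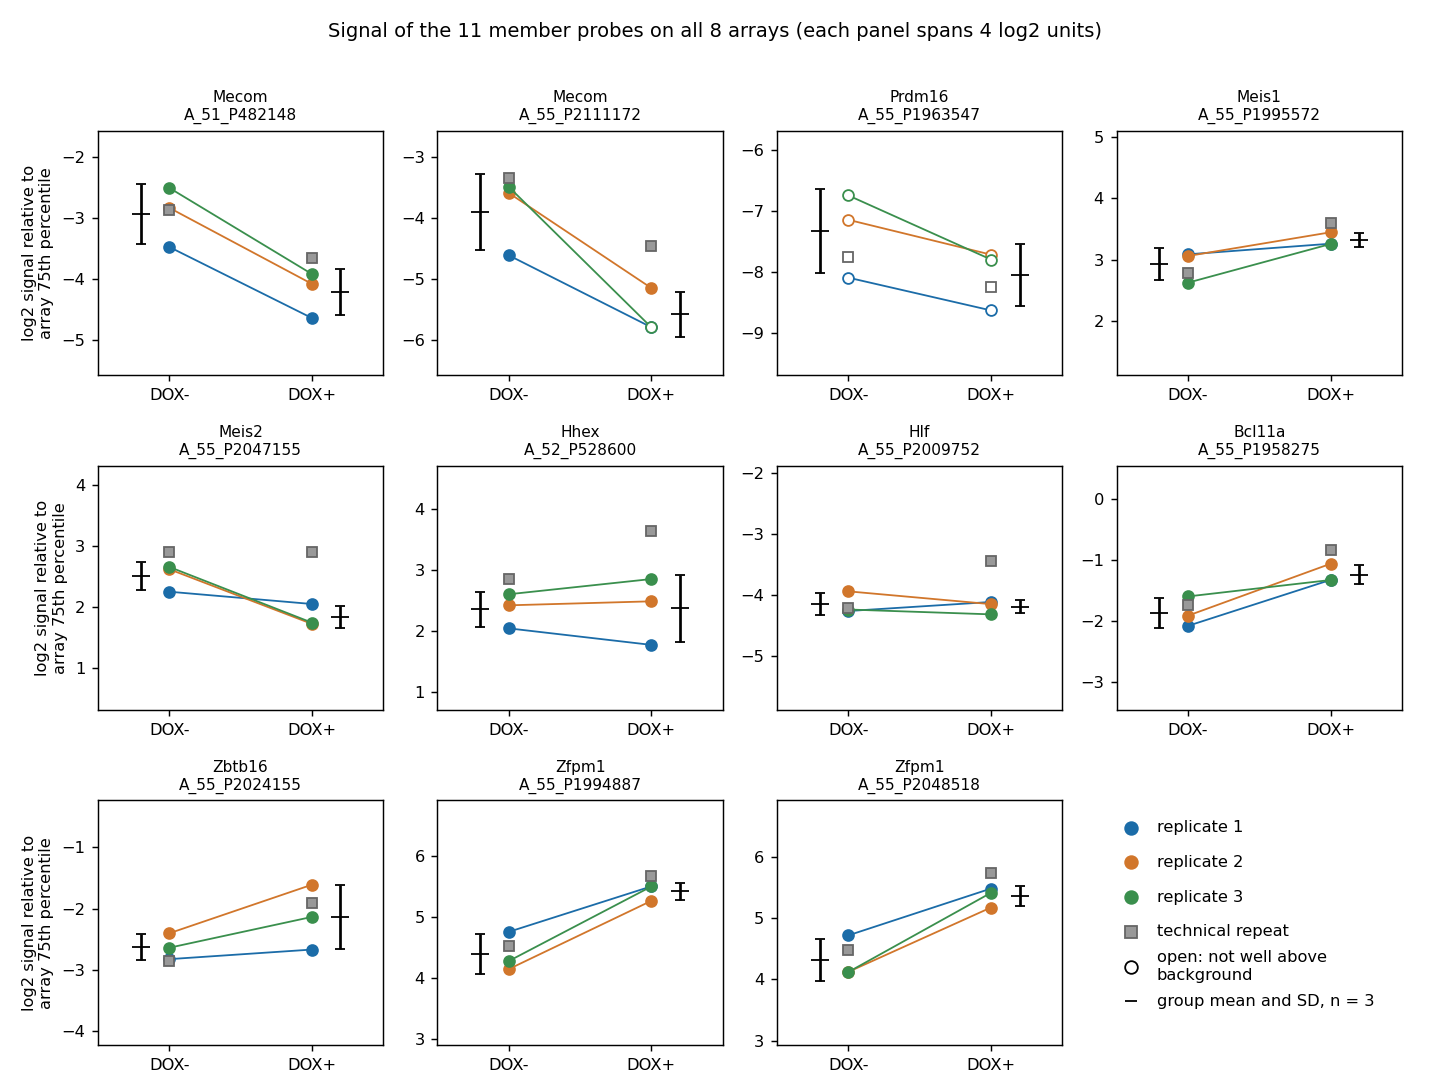
Log2 signal relative to the array's 75th percentile (vertical axes, 4 log2 units in every panel) for each of the 11 probes on the DOX- and DOX+ arrays. Circles joined by a line are replicates of the same number, squares the technical repeats, open symbols arrays not well above background, and bars the mean and SD of 3 replicates. Lines run upward for all 3 replicates at both Zfpm1 probes and downward at both Mecom probes, and the DOX+ square of Hhex and Hlf lies above all 3 DOX+ circles.

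Zfpm1 encodes a zinc finger cofactor that binds GATA1 and GATA2 rather than DNA. Its probe A_55_P1994887 read 4.76, 4.15 and 4.28 on DOX- replicates 1, 2 and 3 and 5.50, 5.27 and 5.50 on DOX+ replicates 1, 2 and 3. All DOX+ arrays were higher than all DOX- arrays, and the DOX- array of replicate 1 was the highest of its group. The mean went from 4.40 ± 0.32 to 5.42 ± 0.14 (SD, n = 3), a rise of 1.03 on the log2 scale (SE 0.20, 95% interval 0.55 to 1.51), or 2.04-fold, with an adjusted p of 0.0324 in limma. The rise was 0.74, 1.12 and 1.22 in the 3 numbered pairs, smallest in replicate 1.

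A second probe for Zfpm1, A_55_P2048518, read 4.72, 4.12 and 4.12 on the DOX- replicates and 5.49, 5.18 and 5.42 on the DOX+ replicates. The groups again did not overlap, and the pattern over the arrays was close to that of the first probe. The 2 probes are annotated to the same RefSeq transcript. Their differences were 1.03 (SE 0.21) and 1.04 (SE 0.22) in a limma fit over all 32856 kept probes, with adjusted p of 0.0484 and 0.0559, on either side of the threshold that 3.65% of all probes passed. The call for Zfpm1 was kept when DOX- replicate 1 was left out (adjusted p 0.0183) and was lost, with differences of 0.90 to 1.11, when any other of the 6 arrays was left out, the adjusted p reaching 0.130. It was also lost without the filter on dim probes (adjusted p 0.0734) and after scaling to spike-in probes, described with Mecom (2.15, adjusted p 0.0524).

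The start of Zfpm1 was read from RefSeq (GRCm38.p6), because it is the factor that passed the threshold. The window runs from 250 bases before to 50 bases after the annotated start, at chr8:122281891-122282190 on the plus strand. It was searched on both strands for TGTGGT and TGCGGT, letters bound by RUNX factors, and for GATAA, letters bound by GATA factors. None of the 3 strings is in it, so it holds no capitals.
Zfpm1: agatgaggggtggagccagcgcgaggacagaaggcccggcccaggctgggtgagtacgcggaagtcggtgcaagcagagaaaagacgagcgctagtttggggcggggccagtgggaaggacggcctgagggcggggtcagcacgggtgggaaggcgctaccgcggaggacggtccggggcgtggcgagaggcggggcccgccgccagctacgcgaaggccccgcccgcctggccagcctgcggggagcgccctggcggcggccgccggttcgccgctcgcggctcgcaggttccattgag
Of 32851 RefSeq windows of the same length, 22.4% hold a RUNX string and 25.4% hold GATAA. Among the 8 of the 9 factors with a window (Zbtb16 is not in the table), 1 held a RUNX string and 1, Mecom, held GATAA. A match or its absence describes these letters only.

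Levels of markers of several cell types are set beside the Zfpm1 value, and they did not all run in its direction. Summed levels are given in multiples of an array's 75th percentile. The 6 measured of 8 megakaryocyte markers summed to 3.53 to 6.54 on DOX- and 43.3 to 57.4 on DOX+ replicates, and 2 of them rose, Itgb3 (a platelet integrin) by 3.91 and Pf4 (a platelet chemokine) by 2.54. The 5 measured of 8 mast cell markers summed to 0.613 to 0.699 and 15.5 to 32.3, with 3 that rose, Gzmb, Mcpt4 and Mcpt8. Among DOX- replicates 0, 1 and 1 had these probes well above background, against 3 DOX+ replicates each, so they were measured through the DOX+ group. Their count, and the mast cell sum that they enter with Gzmb as the brightest gene, are a description. The other mast cell genes measured, Hdc and Tpsb2, were well above background on all 6 arrays and differed by -0.36 (adjusted p 0.367) and -0.42 (adjusted p 0.253), while Cpa3, Fcer1a and Ms4a2 did not pass the filter on dim probes. The 8 pan-blood markers summed to 3.20 to 5.31 and 9.38 to 19.3, with 3 that rose, Spn, Coro1a and Was. Of the other 5, which did not pass, Ptprc differed by -0.19, Vav1 by 0.32, Itga2b by 0.63 and Laptm5 by 0.88. For the megakaryocyte and pan-blood lists the ranges of the groups did not overlap. Itgb3, Spn, Coro1a and Was passed with any 1 array left out, and Pf4 only without DOX- replicate 2. With the replicate block, Gp9 (1.54) and Spi1 (2.80, with 0 DOX- arrays well above background) also passed as rises and Gp5 (-0.77) as a fall. Red cell markers, of which Gata1 and Klf1 are the defining factors, summed to 10.3 to 130.8 on DOX- and 5.93 to 32.3 on DOX+ replicates, with 0 of 6 measured past the threshold and 2 falls, Hbb-bh1 and Hba-x, with the block. The part of these shifts in the rise of Zfpm1 was not tested. In bulk RNA, a change in the number of cells of a type and a change in RNA per cell cannot be told apart.

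Zfpm2, the other FOG cofactor, which partners GATA4 in heart and mesenchyme, fell by 1.52 on the log2 scale (SE 0.22, adjusted p 0.0121 in limma), in the direction opposite to Zfpm1. It read 0.07 ± 0.16 on DOX- and -1.45 ± 0.37 on DOX+ replicates (SD, n = 3). It lost the call without DOX- replicate 2 (-1.47, adjusted p 0.0604) or DOX+ replicate 2 (-1.51, adjusted p 0.0514), and after spike-in scaling (-0.40, adjusted p 0.611), and it was the only 1 of the 7 GATA and FOG partners past the threshold. Gata2, a factor of blood progenitors that binds Zfpm1, differed by 0.79 (SE 0.21, adjusted p 0.0904), and passed as a rise with the replicate block (adjusted p 0.0334). Gata1, the partner of Zfpm1 in red cells and megakaryocytes, read -1.59 ± 2.16 and -2.10 ± 1.51, a spread between replicates larger than the difference of -0.50. The 7 measured of 7 cardiac markers summed to 38.7 to 88.4 on DOX- and 15.0 to 37.3 on DOX+ replicates, and 2 fell, Tnnc1 and Hand2, which passed only without DOX- replicate 3 and only without DOX+ replicate 1 when single arrays were left out. After spike-in scaling Tnnc1 and Hand2 differed by -0.46 and -0.22 and did not pass, and with the replicate block Tnnt2 (-1.52) and Actc1 (-0.63) fell as well. The remaining cardiac markers, Nkx2-5 (0.18), Myh6 (-0.13) and Myh7 (-0.60), did not pass with or without the block. The part of these shifts in the fall of Zfpm2 was not tested.

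The genes whose values ran closest to those of Zfpm1 over the 6 replicate arrays were Agps (Pearson r 0.999), Hexim1 (0.999) and Ube2n (0.998), the top 3 of 14517 genes searched. Their own differences were 0.70, 0.67 and 0.46. These correlations include the difference between the groups and rest on 6 arrays, so they are a description only.

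Mecom encodes a PR domain zinc finger factor, also known as Evi1, that stem cells need for long-term renewal and that is also made in embryonic endothelium. Its brighter probe, A_51_P482148, read -3.48, -2.83 and -2.51 on DOX- replicates 1, 2 and 3 and -4.64, -4.08 and -3.92 on the DOX+ replicates. Every DOX+ array was below every DOX- array, with replicate 1 the lowest of both groups. The mean was -2.94 ± 0.49 on DOX- and -4.21 ± 0.38 on DOX+ (SD, n = 3), a difference of -1.27 (SE 0.30, 95% interval -2.001 to -0.545), which did not pass the threshold (adjusted p 0.0626 in limma). The 3 numbered pairs differed by -1.16, -1.25 and -1.41, a narrower range than that of the replicates themselves. With the replicate number as a block, the difference had an SE of 0.12 and an adjusted p of 0.00438. It also passed with the row of the slide as a block, an alternative chosen after seeing the data (adjusted p 0.0400), where 2 of the 8 factors and 7.01% of all genes passed, and without DOX- replicate 1 (-1.54, adjusted p 0.0352).

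The second Mecom probe, A_55_P2111172, is annotated to a different RefSeq transcript of the gene. It read -4.61, -3.59 and -3.49 on DOX- and -5.79, -5.15 and -5.79 on DOX+ replicates. DOX+ replicate 3 was not well above background at this probe, so the probe was kept only through the DOX- group, where it read higher. Its lack of overlap, its calls and the averaged value below are therefore a description. The probe too had no overlap between groups. Its difference was -1.68 (SE 0.35, adjusted p 0.0524 over all probes in limma), and with the replicate block both Mecom probes passed (adjusted p 0.00940 and 0.0198), where 8.83% of all probes did. Averaging the 2 probes gave a difference of -1.48 that passed at the gene level (adjusted p 0.0390).

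Unlike every other measured factor, Mecom had a lower processed signal on DOX+ than on DOX- arrays before any scaling in all 3 pairs. The DOX+ over DOX- ratio of that signal was 0.621, 0.664 and 0.604 at the brighter probe and 0.615, 0.535 and 0.326 at the other. On the technical repeats the brighter probe was not lower, at 58.8 on DOX- and 59.4 on DOX+, while the other read 42.3 and 34.1. The share of all genes with a lower unscaled signal in all 3 pairs was not counted. Meis2 had ratios of 1.21, 0.846 and 0.854. Against the E1A spike-in probes, RNAs added in known amounts at labelling, the 75th percentile was higher on the DOX+ array by 1.02, 0.75 and 1.60 in replicates 1, 2 and 3, and by 0.35 between the technical repeats. Scaled to the spike-ins, the Mecom difference was -0.15, where the median of all genes was 1.21. The normexp background correction, with an offset of 50 added to every signal, gave -0.77 (adjusted p 0.182).

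Mecom has 2 start windows in RefSeq (GRCm38.p6), and they are shown because they were the only ones among the factors to hold GATAA. The first is at chr3:30509710-30510009 and the second at chr3:30013155-30013454, both on the minus strand and printed in the direction of the gene. Capitals mark GATAA at position -30 from the first start and its reverse complement TTATC at position -198 from the second. Neither window holds a RUNX string.
Mecom window 1: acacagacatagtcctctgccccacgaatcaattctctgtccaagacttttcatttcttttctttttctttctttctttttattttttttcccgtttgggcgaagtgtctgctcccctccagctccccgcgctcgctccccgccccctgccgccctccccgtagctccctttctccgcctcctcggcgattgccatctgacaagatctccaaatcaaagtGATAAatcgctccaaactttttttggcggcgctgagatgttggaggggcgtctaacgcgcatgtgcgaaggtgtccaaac
Mecom window 2: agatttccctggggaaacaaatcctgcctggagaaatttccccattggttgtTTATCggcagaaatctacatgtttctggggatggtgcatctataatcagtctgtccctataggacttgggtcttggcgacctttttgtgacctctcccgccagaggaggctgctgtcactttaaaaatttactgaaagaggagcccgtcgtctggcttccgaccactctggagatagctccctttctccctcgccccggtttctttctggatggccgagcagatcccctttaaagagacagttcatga

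Endothelial markers are set beside Mecom, and they did not all run in its direction. All 13 of 13 were measured, with 0 that rose and 3 that fell, Sox17 (an endothelial transcription factor) by 3.54, Tek (the receptor for angiopoietins) by 1.13 and Eng by 0.92 on the log2 scale. Of the other 10, which did not pass, Flt1 differed by 0.15, Cdh5 by -0.28 and Kdr, the brightest of the list, by -0.34. The summed level of all 13 was 92.1, 178.9 and 235.9 on DOX- replicates 1, 2 and 3 and 69.6, 109.6 and 162.7 on the DOX+ replicates. The ranges of the groups overlapped, but the DOX+ array was lower in each numbered pair. Replicate 1 was lowest in both groups, as it was for Mecom. It was also lowest in both for Hhex and for the red cell and the endoderm and epithelium sums, so that order is not particular to Mecom. With the replicate block 7 of the 13 fell. All 13 were well above background on at least 1 array of each group, so the markers of the labelled endothelial type were present in both groups. Leaving out 1 array ended the Tek call each time, the Sox17 call in 3 of 6 cases and the Eng call in 5, and after spike-in scaling the differences were -2.42 for Sox17, -0.01 for Tek and 0.21 for Eng. The part of these shifts in the Mecom values was not tested. Of the other marker lists, macrophage had 1 fall (Csf1r) among 6 measured, endoderm and epithelium 2 rises (Foxa2 and Cdh1) among 4, and lymphocyte, pluripotent cell and neural lists 0 calls among 2, 4 and 3. Krt8 and Krt18, the other measured genes of the endoderm and epithelium list, differed by -0.61 and 0.09. That list summed to 159 to 369 on DOX- and 218 to 311 on DOX+ replicates, so the ranges overlapped. Csf1r passed only without DOX+ replicate 2 when single arrays were left out, and after spike-in scaling its difference was -0.21 (adjusted p 0.792). With the replicate block the macrophage list gave 1 rise, Lyz2 (2.27, with 0 DOX- arrays well above background), and 3 falls, Csf1r, Cd14 (-0.95) and Mrc1 (-1.97).

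Prdm16, the closest relative of Mecom and likewise a factor of stem cell maintenance, stayed at background on each of the 8 arrays, with no array flagged as well above it. Its probe A_55_P1963547 read -8.09, -7.14 and -6.75 on DOX- and -8.63, -7.72 and -7.79 on DOX+ replicates. With both groups below that level, no fold is given and Prdm16 was not tested. Among the other PR domain factors, 9 of 13 were measured and 0 passed, against 1 rise and 1 fall with the replicate block. Prdm1, known for driving terminal differentiation of lymphocytes, was the rise, with a difference of 1.03 (adjusted p 0.166 without the block), and Prdm15 the fall, at -1.20. The brightest, Prdm6, a factor of smooth muscle, differed by 0.14.

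Meis1 and Meis2 are homeodomain factors that bind DNA together with Pbx and Hox proteins, and Meis1 is needed by blood stem cells and megakaryocytes. The Meis1 probe A_55_P1995572 read 3.09, 3.06 and 2.62 on DOX- replicates 1, 2 and 3 and 3.26, 3.45 and 3.26 on the DOX+ replicates. All DOX+ values were above all DOX- values, and DOX- replicate 3 was the lowest array. The means were 2.92 ± 0.26 and 3.32 ± 0.11 (SD, n = 3), a difference of 0.40 (SE 0.18, adjusted p 0.254 in limma) that did not pass, with a 95% interval from -0.03 to 0.82.

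The Meis2 probe A_55_P2047155 ran the other way and read 2.25, 2.61 and 2.65 on DOX- and 2.04, 1.72 and 1.74 on DOX+ replicates. The groups did not overlap, but replicate 1 was the lowest of the DOX- group and the highest of the DOX+ group. The means were 2.50 ± 0.22 and 1.83 ± 0.18 (SD, n = 3). The difference was -0.67 (SE 0.18, 95% interval -1.10 to -0.24), with adjusted p values of 0.0885 (limma, no block) and 0.0707 (replicate block), and it was -0.20, -0.89 and -0.91 in the 3 pairs. The technical repeats read 2.90 on DOX- and 2.89 on DOX+, a difference of -0.01, unlike any of the pairs. Scaled to the spike-ins the Meis2 difference was 0.45, below the median of 1.21 for all genes under that scaling. Smooth muscle and mesenchyme markers, which ran with Meis2 in direction, summed to 758 to 883 on DOX- and 563 to 664 on DOX+ replicates, with 0 of 7 measured past the threshold and 2 falls with the replicate block, Acta2 (-0.65) and Dcn (-1.85), and their part was not tested.

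The start window of Meis1 (RefSeq, GRCm38.p6, chr11:19018920-19019219, minus strand, printed in the direction of the gene) is shown because it was the only one of the 9 windows to hold a RUNX string. Capitals mark TGTGGT at position -166 from the start.
Meis1: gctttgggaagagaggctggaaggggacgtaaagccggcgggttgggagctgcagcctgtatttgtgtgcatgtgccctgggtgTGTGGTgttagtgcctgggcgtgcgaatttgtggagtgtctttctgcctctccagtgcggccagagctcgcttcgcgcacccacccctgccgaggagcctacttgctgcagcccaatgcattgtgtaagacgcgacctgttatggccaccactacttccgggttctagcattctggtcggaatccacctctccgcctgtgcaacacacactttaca

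Of the 9 TALE class partners and relatives of Meis1 and Meis2, all were measured and 0 passed, with a median difference of 0.10. With the replicate block 1 rose, Pknox2 (0.69), and 2 fell, Tgif2 (-1.03) and Pbx4 (-1.35). Of 7 Hox genes that work with Meis1 in blood progenitors, 5 were measured and 0 passed with or without the block. The brightest of them, Hoxb4, a factor that expands blood stem cells when supplied, differed by 0.33 (adjusted p 0.494).

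Hhex is a homeodomain repressor made early in endothelium and in stem cells. Its probe A_52_P528600 read 2.05, 2.42 and 2.61 on DOX- and 1.78, 2.49 and 2.86 on DOX+ replicates. The DOX- values lay within the range of the DOX+ values, and replicate 1 was lowest and replicate 3 highest in both groups. The difference was 0.01 (SE 0.30, adjusted p 0.980 in limma), and its 95% interval of -0.71 to 0.74 leaves room for a change of either sign. The DOX+ technical repeat read 3.65, above every other array.

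Hlf is a bZIP factor of the PAR group that marks blood stem cells and their embryonic precursors. Its probe A_55_P2009752 was dim but well above background on all 6 arrays, and read -4.27, -3.94 and -4.24 on DOX- and -4.12, -4.15 and -4.32 on DOX+ replicates. The groups overlapped, and DOX- replicate 2 was the highest of the 6 arrays. The difference was -0.05 (SE 0.16, adjusted p 0.879 in limma), with a 95% interval of -0.42 to 0.33. The other PAR and related bZIP factors, Dbp, Tef and Nfil3, were all measured and 0 passed, with Tef, the brightest, at -0.06.

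Bcl11a is a zinc finger repressor known for silencing embryonic and fetal globin genes and for its role in lymphoid and stem cells. Probe A_55_P1958275 read -2.08, -1.91 and -1.60 on DOX- and -1.33, -1.06 and -1.33 on DOX+ replicates. No DOX+ array was as low as any DOX- array, and the means were -1.86 ± 0.24 and -1.24 ± 0.15 (SD, n = 3). The difference was 0.62 (SE 0.18, 95% interval 0.20 to 1.05), and its adjusted p was 0.106 in limma. In the pairs it was 0.75, 0.85 and 0.27. It passed after quantile normalization, at 0.71 (adjusted p 0.0486), and after median centring, at 0.78 (adjusted p 0.0474).

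The embryonic globin and erythroid genes, among them the targets for which Bcl11a is known, had a median difference of -1.40, but 0 of the 7 measured passed. Hbb-bh1, an embryonic beta-like globin and the brightest, read 4.97 ± 1.97 on DOX- and 3.34 ± 1.71 on DOX+ replicates, a difference of -1.64 (SE 1.17, adjusted p 0.450). The spread within each group exceeded the difference between them. In the numbered pairs Hbb-bh1 differed by -1.43, -2.07 and -1.41, and with the replicate block Hbb-bh1, Hba-x and Hbb-y passed as falls. Genes of the list other than embryonic globins also differed, Alas2 by -1.40, Hba-a1 by -1.20 and Klf1 by -1, while Epor differed by 0.12. Any part of Bcl11a in these values was not tested. The red cell markers given beside Zfpm1 share genes with this list.

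Zbtb16, also called PLZF, is a BTB zinc finger repressor of stem and innate lymphoid cells. Its probe A_55_P2024155 read -2.83, -2.41 and -2.64 on DOX- and -2.67, -1.61 and -2.14 on DOX+ replicates. The DOX+ array was higher in each pair, yet DOX+ replicate 1 lay within the DOX- range. The difference was 0.49 (SE 0.28, 95% interval -0.19 to 1.16, adjusted p 0.366 in limma). Of 10 BTB zinc finger and Bcl11 relatives 8 were measured and 0 passed. Bcl6, a repressor of the same class, differed by 0.95 and its endothelial relative Bcl6b by -2.43, and both passed only with the block, while the brightest, Zbtb7b, differed by -0.43 (adjusted p 0.405).

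**Figure D2:**
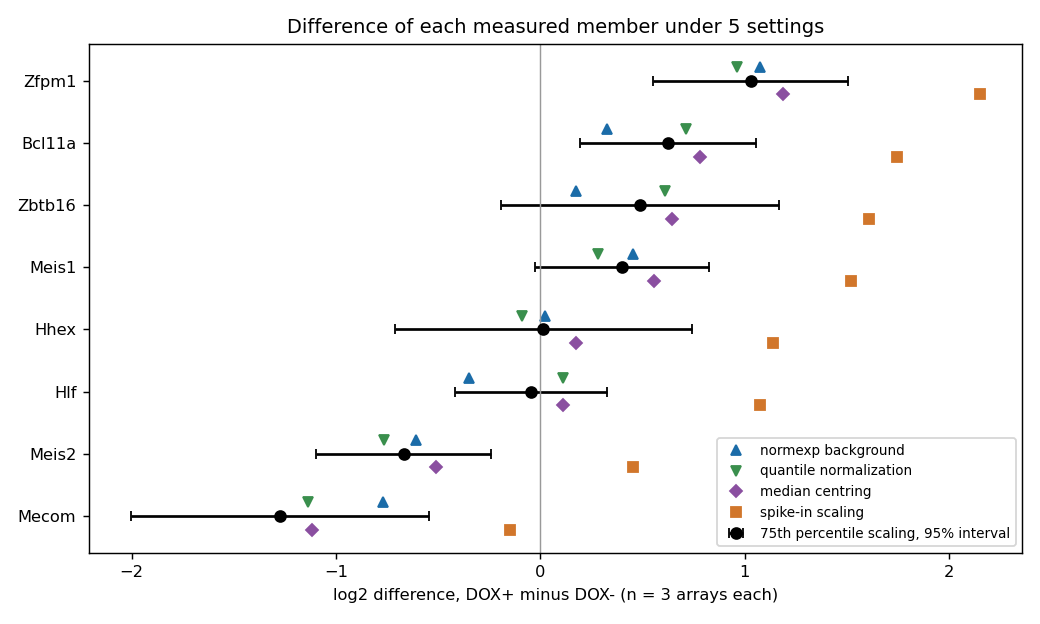
Log2 difference of each measured factor, DOX+ minus DOX- (horizontal axis, 3 arrays per group). Circles and bars are the limma estimate and its 95% interval after scaling to the 75th percentile, and the other symbols are the estimates under the named setting. The spike-in squares lie to the right of all other symbols in every row, at 2.15 for Zfpm1, -0.15 for Mecom and 0.45 for Meis2.

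The direction of the differences held over the numbered pairs for 6 of the 8 factors, all but Hhex and Hlf, against 59.4% of all genes. Replicate 1 had the smallest difference of the 3 pairs for 5 of the 8 factors, 62.5%, against 36.6% of all genes. The median of all genes was 0.25 after median centring and 1.21 after spike-in scaling, against 0.09 in the main scaling, and the share of called genes that rose was 76.9% and 98.5% against 65.7%. Zfpm1 had the highest and Mecom the lowest difference of the 8 factors in each of the 5 settings plotted.

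Corepressors that Mecom, Prdm16, Hhex or Zbtb16 recruit had 16 measured genes, of which 14 did not pass. Tle3, a Groucho family corepressor, rose by 1.103 (SE 0.15, adjusted p 0.00922 in limma), and its paralog Tle4 fell by 0.70 (SE 0.14, adjusted p 0.0375). Tle3 read 3.25 ± 0.14 on DOX- and 4.35 ± 0.10 on DOX+ replicates, and Tle4 read -1.31 ± 0.06 and -2.01 ± 0.14 (SD, n = 3). The groups did not overlap for either gene, and the 2 moved in opposite directions, except that after spike-in scaling Tle4 differed by 0.42 and Tle3 by 2.23, below and above the median of 1.21. Tle3 lost its call without DOX- replicate 2 (1.105, adjusted p 0.0521), and Tle4 without any 1 of the 6 arrays (highest adjusted p 0.139). The Tle4 call was also lost with normexp background, quantile normalization, median centring, an intensity trend and the mean of its kept probes. Its difference was then -0.48 to -0.70, with adjusted p of 0.0656 to 0.163 in limma. The NuRD complex, a chromatin-remodelling repressor that Zfpm1 and Bcl11a bind, had 0 of 13 genes past the threshold and a median of 0.18, and with the replicate block Mta3, one of its subunits, passed as a rise (0.58, adjusted p 0.0438). Its brightest gene, the ATPase Chd4, read 6.11 ± 0.13 and 6.38 ± 0.12, a difference of 0.27 (adjusted p 0.333).

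**Figure D3:**
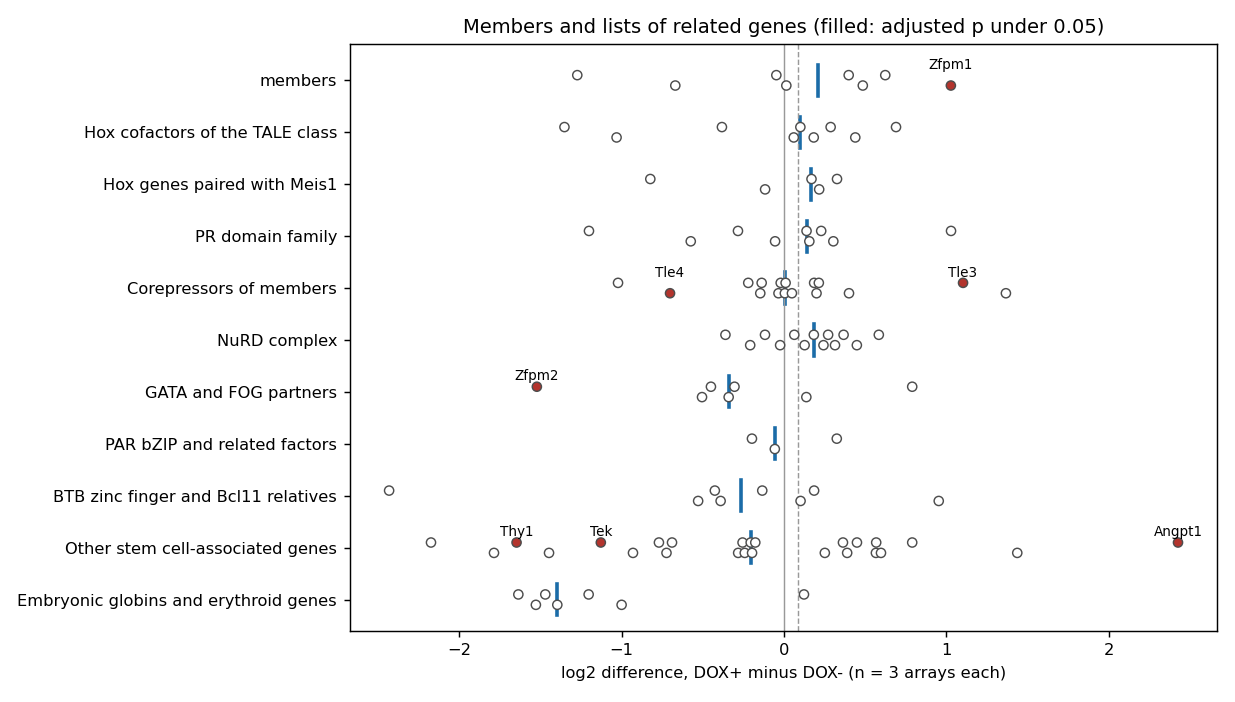
Log2 difference, DOX+ minus DOX- (horizontal axis), of every measured gene in the 9 factors' own row and in 10 lists of related genes. Each circle is a gene, filled and named where its adjusted p was under 0.05, each bar the median of a list, and the dashed line the median of all genes, 0.09. Filled circles are Zfpm1, Tle3, Tle4, Zfpm2, Angpt1, Tek and Thy1, and the erythroid list has the lowest median, -1.40.

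Other genes associated with stem cells, 25 measured of 27, gave 1 rise and 2 falls. Angpt1, the angiopoietin ligand, rose by 2.43 (SE 0.16, adjusted p 0.00137 in limma), from -2.36 ± 0.18 to 0.07 ± 0.10 (SD, n = 3). Its receptor Tek fell by 1.13 (SE 0.24, adjusted p 0.0414), from 1.12 ± 0.27 to -0.01 ± 0.36, so ligand and receptor moved in opposite directions, although the call for Tek did not hold with 1 array left out and its difference after spike-in scaling was -0.01. Thy1, a surface protein used to sort stem cells, fell by 1.65 (SE 0.35, adjusted p 0.0447), passed only without DOX- replicate 1 when single arrays were left out, and was well above background on 3 DOX- arrays and 2 DOX+ arrays. Its difference was -0.79 (adjusted p 0.149) with normexp background and -0.52 (adjusted p 0.504) after spike-in scaling. Angpt1 passed with any 1 array left out, with differences of 2.33 to 2.51. With the block 2 rose, Angpt1 and Gata2, and 8 fell, among them Ly6a (-1.45), the stem cell antigen Sca-1, and Erg (-1.79), an ETS factor of endothelium and stem cells. The median of the list was -0.20. Over all 10 lists, 6 of 101 measured genes passed, 2 that rose and 4 that fell, and 24 passed with the block, against 6.3% and 16.2% of all genes.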

How the data were processed

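Total RNA of 8 samples was measured on 1-colour Agilent arrays. For every array the authors deposited its Feature Extraction scan, holding spot intensity on a linear scale (processed and median signal) and other columns of 0 and 1 as flags. Software was version 10.7.3.1 per the file headers, while 10.7.1.1 and limma stand in the submitters' processing notes. A log2 table was deposited too, and the sources used here do not state how the authors normalized it.

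From the scanner files, control spots and outlier-flagged spots were left out, log2 processed signal was set relative to each array's 75th percentile, and repeat spots were averaged per probe. Saturation flags were 0 throughout. Genes were named through RefSeq accessions of GRCm38.p6, so that 26582 probes had 1 symbol, 0 had several and 29099 had none; the headers name mm9. Probes well above background on all 3 arrays of at least 1 group were kept (32856), and the brightest stood for its gene (14518 genes). Groups, taken from the titles, were compared in R 4.3.3 with limma 3.58.1 (lmFit, then eBayes), using two-sided tests, Benjamini-Hochberg adjusted p-values and a threshold of 0.05. Technical repeats stayed out, since the labels do not say which replicate they repeat. The number of arrays limits the precision. The fit was tested on simulated data with 200 changed genes.

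Same-numbered DOX- and DOX+ arrays deviated together (r of deviations from the group means 0.65, 0.45 and 0.43 for replicates 1, 2 and 3, over genes), so the replicate number was fitted as a block in an alternative, given for the factors and for lists whose counts it moved. Other alternatives changed background, scaling, filter, probe choice, variance model, source table and arrays. normexp used the median signal, as the files hold no mean signal.

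Named are all 9 factors with every probe, of each related list the 2 largest rises and falls past the threshold or otherwise the brightest gene, and the 3 genes nearest to Zfpm1. 1 gene that this rule names is not reported here. Single genes that passed only with the block, Gata1, Runx1 and the markers were named after their values were seen. The factors and lists were chosen with earlier results of these data known.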

Additional observations from a re-analysis of the deposited data

Results flagged for a closer look

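The technical repeat arrays took no part in the comparison. On the DOX+ repeat, 7 of the 11 probes read above all 4 uninduced arrays, and 6 of these above all 7 other arrays. These were both Zfpm1 probes at 5.67 and 5.74, Hhex at 3.65, Meis1 at 3.60, Bcl11a at -0.83 and Hlf at -3.45. Zbtb16, at -1.90, was above the uninduced arrays but below DOX+ replicate 2, at -1.61. For Hhex and Hlf, whose replicates overlapped, the highest uninduced array read 2.85 and -3.94. The share of all probes that read above the uninduced arrays on the DOX+ repeat was not counted. The 7 of 11 therefore cannot be read as particular to these factors. Over all genes tested, each read by its brightest kept probe, the DOX+ repeat differed from the DOX+ replicates with an SD of 0.67 to 0.87. Those replicates differed from each other with an SD of 0.49 to 0.61.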

How the results depend on the processing

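Of 152 values of the 8 measured factors over 19 alternative settings, 118 kept their sign and their side of the threshold, 8 lost a call, 7 gained one and 19 changed sign, all but 6 of them for Hhex or Hlf. The cause was not tested for any of these. With the replicate block, which follows the pairing of the arrays, 2347 genes, 2 factors, 4 of their probes and 24 related genes passed. Besides the Mecom, Gata2 and other calls given above as gained, it ended no call of a factor. With the row of the slide as a block, chosen after seeing the data, 2 factors and 0 of their probes passed (6 at an unadjusted p under 0.05). Slide could not be fitted as a block because all arrays share 1 slide. Quantile normalization, median centring and the mean of a gene's probes each gave 2 factors, and an intensity trend gave 2 probes. Without the filter on dim probes, 534 genes, 0 factors and 0 probes passed (4 and 6 at an unadjusted p under 0.05).

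After spike-in scaling 0 factors and 0 probes passed (4 and 5 unadjusted), and Meis2 differed by 0.45 and Hlf by 1.08. With the brightest spike-in left out, chosen after seeing the data because its signal hardly varied, Mecom differed by 0.014, Meis2 by 0.62 and Hlf by 1.24. Hhex differed by -0.092 and Hlf by 0.11 after quantile normalization, and Hlf by 0.11 after median centring.

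In the authors' log2 table, 2 of 8 columns tracked the array they are named for and 6 tracked another, 4 of them in the other group, while its centring stays unknown. With columns as named, 0 genes passed in limma (234 at an unadjusted p under 0.05), hence 0 factors, 0 probes and 0 related genes, and Mecom differed by 0.27, Meis2 by 0.13, Hlf by 0.12 and Zfpm1 by -0.16. With columns read as the arrays they track, 2 factors and 2 probes passed, Hhex differed by -0.12 and Hlf by 0.030.

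With 1 array left out, 358 to 822 genes, 0 to 2 factors, 0 to 4 probes and 1 to 4 related genes passed. Hhex then differed by -0.23 to 0.31 and Hlf by -0.10 to 0.056. Signals of Prdm16 and the second Mecom probe lie near the background, which limits what can be said of both. The first Mecom probe and the Hlf probe were dim too, with processed signals of 35.2 to 62.9 and 17.9 to 56.1 on the replicates. With normexp background they differed by -0.77 and -0.35.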
